A study of Mus musculus with 2 samples.

Results

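Heterotrimeric G proteins, small GTPases and the proteins that switch them on and off were followed in mouse primary osteoblasts, which build bone, with and without TGF-beta1. The members were chosen by the text beside each probe. They were all probes whose gene description named a guanine nucleotide factor, a GTPase, a GTP-binding protein, a regulator of G-protein signaling or a numbered RAB protein, and that did not name a kinase, an interferon or a septin. This gave 62 of 3757 probes, each with 1 spot per array. RNA from 1 untreated culture was hybridised to 1 array and RNA from 1 culture exposed for 24 h to TGF-beta1 (2 ng/ml) to another, both in Cy3. Both cultures were kept in alphaMEM with 0.2% FBS, so the untreated cells were starved of serum too. The sources used here do not give the strain, the age or the number of animals behind each culture. The comparison addresses which genes differ in osteoblasts given TGF-beta1. With 1 sample in each group there was no spread between replicates and no test or p-value, and each difference described compares these 2 arrays only, with no replicate check.

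GTPases are switches that are on when bound to GTP and off when bound to GDP. Exchange factors load GTP, and GTPase-activating proteins, including the RGS proteins, speed its hydrolysis. Heterotrimeric G proteins pass signals from receptors in the membrane: in osteoblasts, parathyroid hormone and prostaglandins act through them. Rab proteins direct vesicle traffic, including secretion of matrix, and Rac, Cdc42 and Ras proteins control the cytoskeleton and growth. TGF-beta receptors act mainly through Smad factors but can also engage Rac and Ras.

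The start regions of the genes with the largest differences above the detection threshold on both arrays are shown first, because the results below turn on these members. They are G3bp1 (chr11:55469502-55469801 on the plus strand), Gna11 (chr10:81545113-81545412 on the minus strand), Gtpbp1 (chr15:79690646-79690945 on the plus strand) and Rack1 (chr11:48800110-48800409 on the plus strand), each with 250 bases before and 50 after the annotated start, from RefSeq on build GRCm38.p6. Capitals mark CAGAC on either strand, the core of many Smad-binding sites, and in Rack1 the run of pyrimidines that begins at the annotated start.
G3bp1: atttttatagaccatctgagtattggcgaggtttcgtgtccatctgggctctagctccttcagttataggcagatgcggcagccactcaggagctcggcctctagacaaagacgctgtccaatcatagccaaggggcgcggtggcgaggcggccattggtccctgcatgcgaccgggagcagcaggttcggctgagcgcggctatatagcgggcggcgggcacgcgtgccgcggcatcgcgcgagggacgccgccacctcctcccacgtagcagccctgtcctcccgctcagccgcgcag
Gna11: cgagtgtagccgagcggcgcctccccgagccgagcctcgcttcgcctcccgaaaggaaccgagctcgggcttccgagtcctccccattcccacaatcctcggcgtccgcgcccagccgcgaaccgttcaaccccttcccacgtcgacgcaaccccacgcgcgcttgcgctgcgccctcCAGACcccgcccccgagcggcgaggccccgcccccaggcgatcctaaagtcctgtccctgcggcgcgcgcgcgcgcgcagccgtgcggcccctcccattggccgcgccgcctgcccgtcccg
Gtpbp1: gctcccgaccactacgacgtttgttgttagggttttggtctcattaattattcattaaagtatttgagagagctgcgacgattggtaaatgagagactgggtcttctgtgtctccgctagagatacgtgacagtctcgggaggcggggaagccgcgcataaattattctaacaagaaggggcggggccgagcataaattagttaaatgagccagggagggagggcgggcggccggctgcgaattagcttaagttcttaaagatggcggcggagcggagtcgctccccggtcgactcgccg
Rack1: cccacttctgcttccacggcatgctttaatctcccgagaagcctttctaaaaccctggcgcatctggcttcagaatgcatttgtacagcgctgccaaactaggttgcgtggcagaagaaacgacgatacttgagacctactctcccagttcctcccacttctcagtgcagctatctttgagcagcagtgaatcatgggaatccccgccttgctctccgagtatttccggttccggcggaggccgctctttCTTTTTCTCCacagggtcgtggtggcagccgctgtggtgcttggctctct
The Gna11 window held 1 CAGAC, on the strand shown, with its first base 72 before the start (-72), and the other 3 windows held none. Of 32544 windows of this length in the RefSeq table, 49.5% held CAGAC on either strand, as did 34 of the 67 windows of the 49 member genes that matched the table. The AP-1 site TGACTCA, searched on both strands, was in none of the 4 windows, in 5.19% of all windows and in 3 of the members' 67. The palindromic Smad site GTCTAGAC was in none of the 4, in 0 of the members' 67 and in 0.215% of all. These are matches of letters and say nothing of binding. The Rack1 window had 10 pyrimidines in a row from the start, which 0.759% of all windows equalled or exceeded. Such a tract is known from messenger RNAs of the translation machinery as the terminal oligopyrimidine motif. This property was looked at after the Rack1 values were seen.

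Most members gave dim signals. The signal threshold in the workbook's header, 87.4, was the highest lambda phage control signal. Of the 62 members, 17 lay above it on both arrays, 1 on the untreated array only, 2 on the treated array only and 42 on neither. The 20 members that passed 87.4 somewhere were 32.3% of the members, where 26.5% of all probes passed it on 1 array or both. With the mean of the lambda spots, 67.0, in its place, 30 members passed on at least 1 array and 23 on both. How many of all probes passed 67.0 was not counted, and the threshold below is 87.4 unless another is named. The deposited values summed to 427889 untreated and 431093 treated. Markers of osteoblasts were present: of 9 listed markers 6 were on the array, all 6 passed the threshold on 1 array or both, and their summed signal was 3442 untreated and 2858 treated. They went apart: Ibsp, bone sialoprotein, had 239.9 untreated and 47.9 treated, at least 2.74-fold lower, and Cdh11 was at least 1.62-fold lower. Sparc had a log2 ratio of -0.58, which turned to 0.14 with neighbour medians subtracted, while Alpl had 0.39, Col1a2 -0.052 and Bglap -0.010. Of the listed markers of other cells, 4 of the 5 on the array for skeletal muscle passed it (summed signal 1799 untreated and 1489.96 treated), as did 1 of 2 for adipocytes (327 and 365), 1 of 2 for macrophages and osteoclasts (129 and 95.4) and 1 of 3 for neurons (854 and 1178, members left out). The 4 endothelial markers matched no probe. Their part in the values below was not tested. In such bulk RNA, fewer cells of a type and less RNA per cell cannot be told apart.

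No G protein, GTPase or regulator that could be read on both arrays reached a 2-fold difference. Of the 17 members, 0 were at least 2-fold higher with TGF-beta1, where 1.51% of all 795 such probes were, and 0 were at least 2-fold lower, where 2.26% were. With 17 members, counts of 0 do not set them apart from these backgrounds. At 1.5-fold, 1 member was higher, G3bp1, and 1 was lower, Rack1, where 7.17% and 8.18% of all probes were, so these shares were also near the background. Across the other treatments of the ratio the counts at this size ran from 0 to 4 higher and from 0 to 1 lower. Those of all 795 probes ran from 31 to 119 higher and from 36 to 77 lower. Gna11, at 1.4955-fold higher, was just under this size. By direction 8 of the 17 were higher and 9 lower, where 53.2% of all probes were higher and 46.8% lower. The median log2 ratio of treated over untreated was -0.032 over the 17 members and 0.026 over all 795 probes, and the SD was 0.36 and 0.44.

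**Figure D1:**
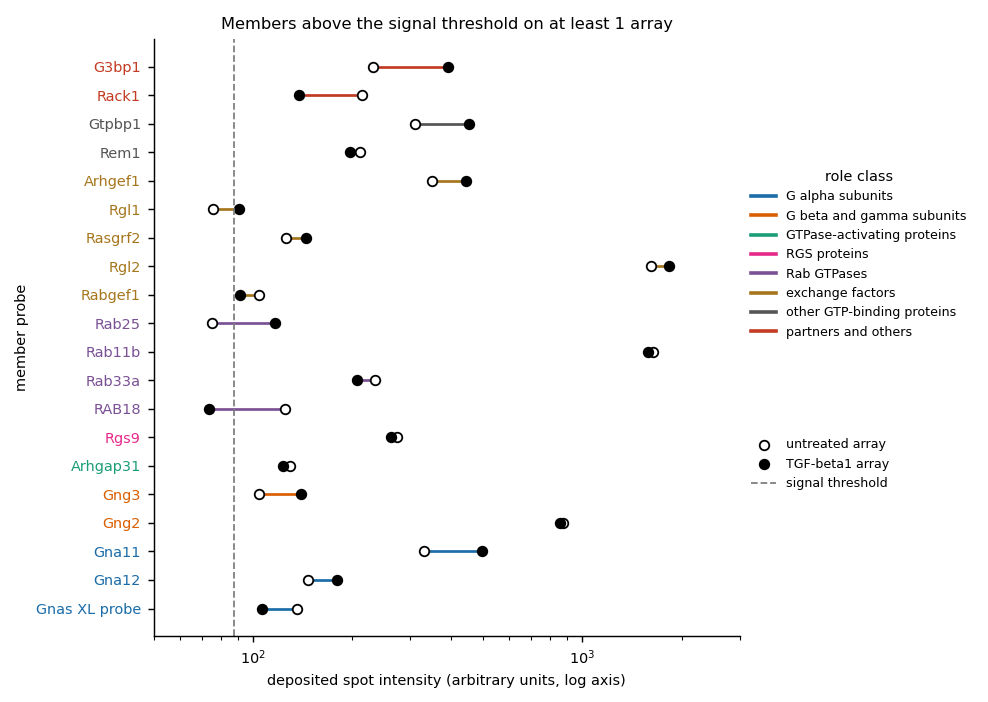
Deposited spot intensity (arbitrary units, log axis) of the 20 members that passed the signal threshold of 87.4 (dashed line) somewhere, with open points for the untreated array, filled points for the TGF-beta1 array and the line colour for the role class. The distance between the points is widest for G3bp1, RAB18, Rab25 and Rack1, and those of RAB18, Rab25 and Rgl1 lie on both sides of the threshold.

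**Figure D2:**
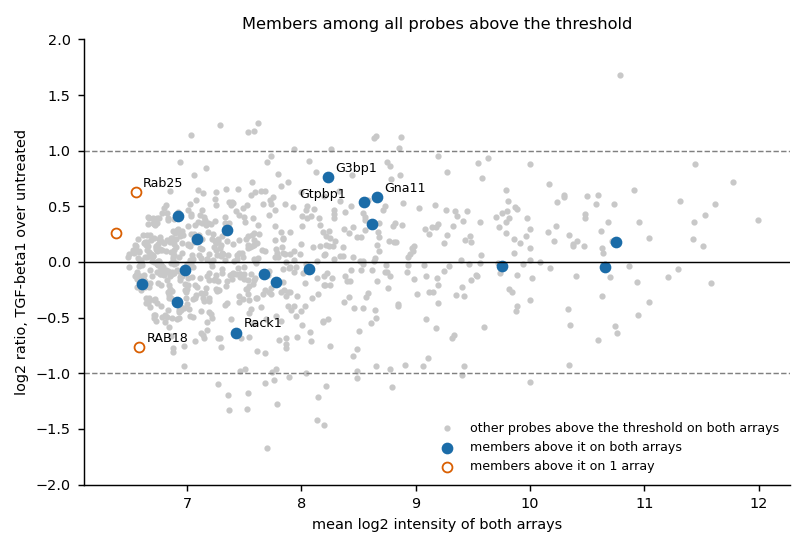
Log2 ratio of TGF-beta1 over untreated against the mean log2 intensity of both arrays, for members above the threshold on both arrays (filled blue), members above it on 1 array (open orange) and other probes above it on both (grey). Dashed lines mark 2-fold, and all 20 members lie between them.

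The alpha subunits of heterotrimeric G proteins bind the receptor and the nucleotide and decide which enzyme is engaged. Of 8 members, 3 passed the threshold on both arrays, with a median log2 ratio of 0.29. Gna11, of the class that activates phospholipase C beta, had 331 untreated and 496 with TGF-beta1, a log2 ratio of 0.58. Gna12, of the class that acts on small GTPases through exchange factors, had 147 untreated and 180.1 with TGF-beta1, a log2 ratio of 0.29. The probe for the extra large form of the stimulatory subunit, an alternative product of the Gnas locus, went the other way, with 136 untreated and 107 treated, 1.28-fold lower. That probe was matched to no symbol, and whether it also read the common stimulatory form was not tested. Ratios also differed by place: the array was laid out in 48 blocks, whose median log2 ratio over detected probes ran from -0.49 to 0.38. These 3 directions held under all 10 alternative treatments of the log2 ratio, some of which subtracted the median of the spot's block or of its neighbours. Not all of the 10 could turn a direction: adding the same offset to both signals or taking the deposited ratio could not. Division by a total or a median shifted all ratios alike. The 3 spots and that of Gng3 lay close together in block F3, within 5 positions of 1 line of spots. The other 5 were above the threshold on neither array, with untreated signals of 16.1 to 45.6: Gnaq, the close relative of Gna11, the retinal transducins Gnat1 and Gnat2, and Gna14 and Gna15.

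The beta and gamma subunits form the partner dimer of the alpha subunit and signal on their own once released. Gng2 had 872 untreated and 853 treated, so the arrays differed by 1.02-fold, and its log2 ratio of -0.032 turned to 0.089 with the block median subtracted. Gng3, a gamma subunit known mainly from brain, had 105 untreated and 139.7 with TGF-beta1, a log2 ratio of 0.42. The Gng3 spot lay next to that of the extra large Gnas form in block F3, and these neighbours had opposite directions. Both directions held under all 10 alternatives. Gnb1, Gnb4 and Gng4 were above the threshold on neither array, with untreated signals of 25.3 to 58.9.

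RGS proteins shorten the signal of the alpha subunit. Of 7 members 1 was above the threshold. Rgs9, known as the brake on transducin in photoreceptors, had 274 untreated and 262 treated, 1.05-fold lower. This turned to a log2 ratio of 0.022 with the block median subtracted. It turned to 0.33 with the median of all probes of the block, or of all neighbours, bright or dim. The remaining 6 lay under the threshold on both arrays. They were Rgs2, which limits Gq signalling, Rgs1, Rgs5, Rgs14, Rgs17 and a probe that the file describes both as an RGS protein and as a protein that interacts with it.

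Rab GTPases, the largest class with 13 members, held 2 above the threshold on both arrays and 2 above it on 1 array. Rab11b, of the recycling endosome, had 1633 untreated and 1583 treated, 1.03-fold lower. This was the member whose ratio depended most on place: its log2 ratio was -0.045, against 0.25 once the median of block B2 was subtracted and 1.15 with the median of its neighbours, and the last value rested on 3 neighbouring probes. Rab33a, of a subfamily that works at the Golgi, had 234 untreated and 206 with TGF-beta1, a log2 ratio of -0.18. This became 0.22 and 0.44 when medians of all probes of the block and of all neighbours, bright or dim, were subtracted, and stayed negative otherwise. Those subtractions also moved the median over all 795 probes from 0.026 to 0.15 and 0.17.

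The other Rab members that could be read crossed the threshold between the arrays, in opposite directions. The probe named RAB18, a Rab of lipid droplets and the endoplasmic reticulum, had 125 untreated and 73.4 treated and was at least 1.43-fold lower. Of all 995 probes that passed the threshold somewhere, 13.0% did so on the untreated array only and 7.14% on the treated array only. Rab25, an epithelial relative of Rab11a and Rab11b, had 75.4 untreated and 116 treated and was at least 1.33-fold higher. Both bounds divide the bright signal by the dim one or by the lowest detected signal of the dim array, whichever was higher. Neither bound reached 1.5-fold, and both directions held under all 10 alternatives, although the measured log2 ratio of RAB18, -0.77, shrank to -0.17 when the median of all its neighbours was subtracted. The 9 Rab members above the threshold on neither array were Rab1a, Rab3a, Rab4a, RAB5B, Rab7, Rab9, Rab10, Rab11a and Rab33b. Of these 8 had lower and 1 had higher measured values on the treated array, but among all probes under the threshold 65.9% were lower, and values under the threshold are not ordered here.

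Of 6 other GTP-binding proteins, 2 were above the threshold on both arrays. Gtpbp1, a GTPase related to translation elongation factors, had 311 untreated and 453 treated, 1.46-fold higher. Its log2 ratio of 0.54 lay between 0.43 and 0.83 under all alternatives. Rem1, a Ras-like protein that inhibits voltage-gated calcium channels, had 212 untreated and 197 with TGF-beta1, a log2 ratio of -0.10, against 0.39 and 0.31 after subtraction of the medians of all probes of the block and of all neighbours. Drg1, Gnl1, Gtpbp2 and the immunity-related GTPase Tgtp1 were under the threshold on both arrays.

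Exchange factors, which switch GTPases on, were the class read most often. Of 9 members, 5 passed the threshold on 1 array or both, where 26.5% of all probes did. Arhgef1, an exchange factor that subunits of the Gna12 family activate, had 349 untreated and 442 with TGF-beta1, a log2 ratio of 0.34. Rasgrf2, which acts on Ras and Rac, had 126 untreated and 145 with TGF-beta1, a log2 ratio of 0.20. Both were higher with TGF-beta1 under all 10 alternatives, and Rasgrf2 had 0.70 once the median of all probes of its block was subtracted. Of the exchange factors for Ral, Rgl2 had 1615 untreated and 1829.9 treated, 1.13-fold higher. This shrank to a log2 ratio of 0.0099 after loess on signal and rose to 0.67 with the median of all probes of its block subtracted. Its relative Rgl1 had 75.7 untreated and 91.0 treated, at least 1.04-fold higher, and its measured log2 ratio of 0.26 turned to -0.15 after subtraction of the median of all neighbours. Rabgef1, the exchange factor for Rab5 proteins, was the exception, with 104 untreated and 91.1 treated. Its log2 ratio of -0.20 was -0.58 once the median of block J3 was taken off, which was 0.38 over the block's 12 detected probes. Net1, Ngef, Sergef and Tiam2 lay under the threshold on both arrays. Over the 4 exchange factors above it on both arrays the median log2 ratio was 0.19, with 3 higher and 1 lower. Of all probes above it on both, 53.2% were higher and 46.8% lower, and 4 members cannot be set apart from these shares.

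GTPase-activating proteins, which switch GTPases off, gave 1 member above the threshold of 5. Arhgap31, which acts on Cdc42 and Rac, had 129 untreated and 123 treated, 1.05-fold lower, and its own ratio was the median of its block J4, so that it became 0 after subtraction. The regulators Arhgap5, Arhgap6 and Dlc1 and the cytokinesis factor Racgap1 were above the threshold on neither array. Arhgap6, named here after its values were seen, came just under it with 66.4 untreated and 85.2 treated, and Rgl1 and Rabgef1, with 91.0 and 91.1 treated, came just above.

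**Figure D3:**
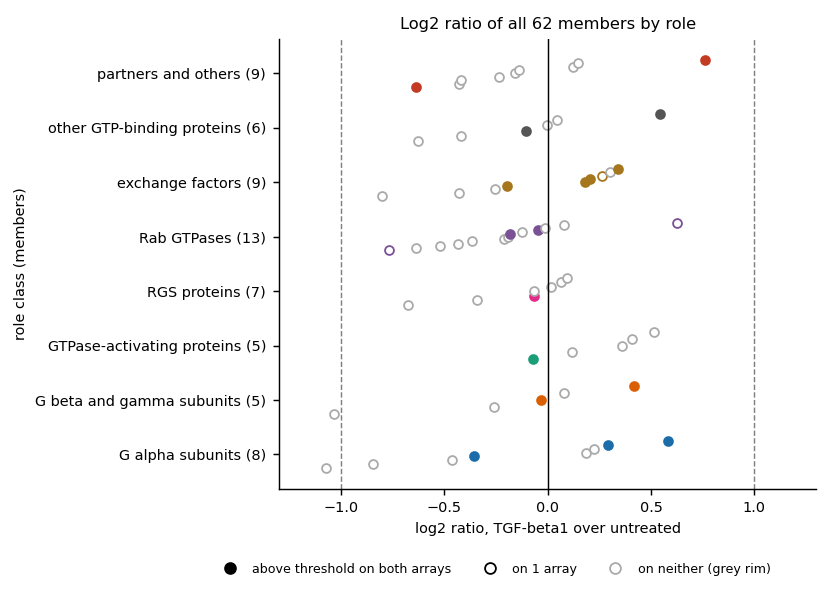
Log2 ratio of TGF-beta1 over untreated for all 62 members by role class, with the number of members in brackets. Filled points were above the signal threshold on both arrays, open coloured points on 1 array and open grey points on neither, and dashed lines mark 2-fold. The 2 points beyond 2-fold, Gnaq and Gnb4, are dim spots under the threshold on both arrays and were named after their values were seen. Of all probes with no filter, 202 of 3754 were at least 2-fold lower.

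Among members read on both arrays, the largest ratios in either direction belonged to binding partners that the text rule brought in and that are not GTPases. G3bp1, an RNA-binding protein of stress granules first described as a partner of Ras GTPase-activating protein, had 231 untreated and 391 treated, 1.69-fold higher. Its log2 ratio of 0.76 lay between 0.58 and 0.95 under all alternatives, and block L3, where it was spotted, had a median of 0.14. Its ratio stayed at 1.5-fold or more except with an offset, where the log2 ratio was 0.58. Rack1, a scaffold of the ribosome and of protein kinase C that the file names for its likeness to a G protein beta subunit, had 215 untreated and 138 treated, 1.55-fold lower. It lay in block E4, whose median was -0.22 over 22 detected probes and -0.55 over all its probes. The log2 ratio of Rack1 was -0.64 as deposited, -0.42 with the first median subtracted and -0.089 with the second, and it turned to 0.24 when the median of all its neighbours was subtracted.

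The other 7 in this class lay under the threshold on both arrays. They were Iqgap1, a scaffold that binds Cdc42 and Rac, the Cdc42 effector Cdc42ep4, the cytokinesis motor Kif20a that binds Rab6, the ciliary regulator Rpgr, Tnk2, G3bp2 and Nudt1. Tnk2 is itself a kinase, and Nudt1 cleans up oxidised nucleotides and has no part in GTPase switching. The text beside their probes, not their function, placed them among the members.

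**Figure D4:**
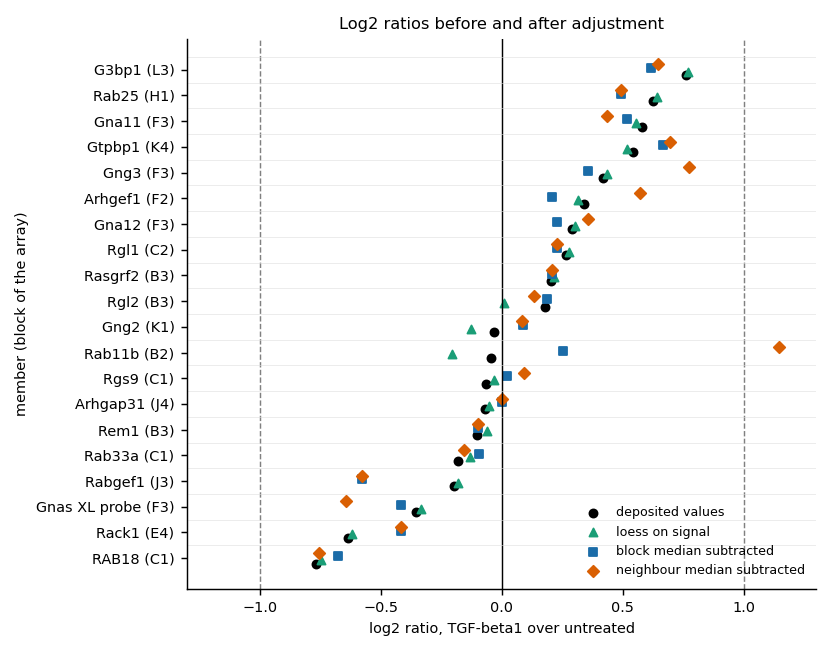
Log2 ratio of TGF-beta1 over untreated for the 20 members that passed the threshold on 1 array or both, with the block of the array in brackets. Points show the deposited values (circles), loess on signal (triangles), and subtraction of the block median (squares) or of the neighbour median (diamonds) of probes above the threshold, and dashed lines mark 2-fold. Rab11b passes 2-fold in 1 setting, after subtraction of the neighbour median, where 16 of all 795 probes were at least 2-fold higher.

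Across all treatments of the ratio, 12 of the 20 members kept their direction in all 10 alternatives and 8 did not. Those that kept it were the higher Gna11, Gna12, Gng3, Gtpbp1, Rab25, Arhgef1, Rasgrf2, Rgl2 and G3bp1 (9 members) and the lower Gnas extra large form, RAB18 and Rabgef1 (3 members). How many of all detected probes kept theirs was not counted, so these counts have no background beside them. Subtracting medians of all probes of the block or of all neighbours raised the median over all 795 probes from 0.026 to 0.15 and 0.17. Adding the same offset to both signals or taking the deposited ratio could not turn a direction, so not all of the 10 were a check of it. The alternatives rest on the same spots, so a kept direction says nothing of how a second pair of cultures would behave. The log2 ratios of the 8 lambda control spots, which were dim, had an SD of 0.20, which gives a rough scale but no gene's own error. Their median was -0.23, with ratios of 0.749 to 1.18, so these dim controls themselves tended lower on the treated array. Of the 17 members read on both arrays, 9 (52.9%) lay within 1.2-fold, where 50.4% of all probes did.

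Other genes of the same pathways were read from 5 lists of 147 symbols. With the members left out, the array held 45 of these, of which 11 passed the threshold on both arrays and 2 on 1 array. Of the 11, 8 were higher and 3 lower with TGF-beta1, with a median log2 ratio of 0.19, where 53.2% of all probes were higher and their median was 0.026. Of the 11, 0 reached 1.5-fold in either direction, where 7.17% and 8.18% of all probes did. Under the alternatives 7 to 9 of them were higher and 2 to 3 lower, and the same counts over all probes were not made. Of 14 Ras superfamily genes, Arf6, a GTPase of the cell surface and endosomes, had 137 untreated and 199 with TGF-beta1, a log2 ratio of 0.54. Rrad, a relative of Rem1, had a log2 ratio of 0.20, which was the median of its block, and Arf5, a Golgi GTPase, had 0.19. Rnd2, an atypical small GTPase, was at least 1.13-fold lower, but its measured log2 ratio of -0.28 turned to 0.098 after subtraction of neighbour medians. Of 7 exchange and activating factors, Fgd1, a Cdc42 exchange factor needed for skeletal growth, had a log2 ratio of -0.20 that turned to 0.28 with the median of block C4 subtracted.

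Effectors and receptors on either side of the G proteins went both ways. The kinase Limk2, which acts on cofilin, had 235 untreated and 326 with TGF-beta1, a log2 ratio of 0.47. Rhpn1 had a log2 ratio of 0.40 and the formin Diaph1 of -0.20. Adcy8, an adenylate cyclase, had 248 untreated and 260.1 with TGF-beta1, a log2 ratio of 0.070 that turned to -0.16 with the block median subtracted, and Adcy9 was at least 1.10-fold higher, with a measured log2 ratio of 0.43 that was -0.0022 with neighbour medians subtracted. Of 9 osteoblast receptors for such signals 2 were above the threshold on both arrays. Ptger1, a prostaglandin E receptor that couples to calcium signals, had 507 untreated and 631 with TGF-beta1, a log2 ratio of 0.31. A spot matched by accession to the lysophosphatidic acid receptor Lpar1 had 171 untreated and 125 with TGF-beta1, a log2 ratio of -0.45.

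The array's own scheme placed 15 of the 62 in a functional class, 24.2%, where 42.5% of all probes had one. Of the 9 probes in its class of G proteins, 7 were members, and 6 of these were Rab proteins.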

How the data were processed

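Total RNA of 2 cultures was labelled with Cy3 and read on 1 array each. The authors deposited linear spot intensities, normalized by a method that the file headers call global, and a ratio of treated over untreated intensity per spot. Per the file headers, the array was Atlas Glass Mouse 3.8 and the software Atlas Iris 1.01. The sources used here do not give the scanner or background method. Gene descriptions were joined to probe identifiers through the deposited ratio table, whose 3774 ratios had the same text, in the same order, as the workbook. The 17 control spots without an identifier were left out. For 3754 probes the deposited ratio matched the quotient of the intensities within 0.0001. A further 16 workbook columns of per-sample values, with names that matched no label, were not used.

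The main value was the log2 of treated over untreated intensity with nothing added. Values above 87.4 were taken as detected. Symbols came from unversioned accessions and a mouse gene table of GRCm38.p6: 58 of 62 members matched and 4 kept the file's name. The probes' own sequences were not used, so signal shared with related genes was not separated. With 1 spot per array behind each value, precision is limited by the number of arrays.

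Alternatives were division by total signal or by the detected median, quantile normalization, loess (span 0.4), an offset of 96.7 (the 10th percentile of detected signals), the deposited ratio, other filters and thresholds, and subtraction of block or neighbour medians. Neighbours lay within 2 rows and 2 columns of the same block, and with under 3 of them the block median was used. Medians over all probes, bright or dim, were added after seeing the data. The members, role classes and gene lists were chosen with earlier results of these data known. Every detected member is given with values, the others by name, with up to 4 detected genes from each wider list. Scripts ran on Python 3.11.15, numpy 2.4.6 and pandas 2.3.3 and were tested on simulated data.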

Additional observations from a re-analysis of the deposited data

How the results depend on the processing

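No paired analysis was possible because each group had 1 sample. Values with no test were called moved when they changed by at least 0.20, the SD of the lambda log2 ratios. Quantile normalization, both divisions, loess and the deposited ratio changed no member value by that much, and they left the counts of members at 2-fold at 0 and 0. Of 200 member values under the alternatives, 168 stayed within 0.20 and the others did not. Over all sizes 8 members turned or reached 0 in at least 1 alternative. Of these, the members whose deposited log2 ratio itself exceeded 0.20 were Rack1, which turned to 0.24, and Rgl1, which turned to -0.15, both after subtraction of the median of all neighbours. The count of members at least 2-fold higher became 1 after subtraction of neighbour medians (Rab11b, 3 neighbours), and at 1.5-fold 1 was higher and 1 lower. At 1.5-fold the counts were 1 and 0 after quantile normalization, where Rack1 had -0.58, 2 and 1 after division by the detected median (Gna11 added), and 0 and 0 with the offset. They were 2 and 0 after subtraction of block medians and 4 and 1 after that of neighbour medians (G3bp1, Gng3, Gtpbp1 and Rab11b; the Gnas extra large form), where 84 and 77 of all probes were. With all probes of the block they were 4 and 0 (G3bp1, Gtpbp1, Rasgrf2 and Rgl2), where 110 and 42 of all probes were. With all neighbours they were 2 and 0 (G3bp1 and Gtpbp1), where 119 and 53 were. With no filter 2 dim members of 62, Gnaq and Gnb4, were at least 2-fold lower, where 202 of 3754 probes were.

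The median log2 ratio over members became 0.19 after subtraction of block medians, 0.29 after that of all probes of the block and 0.29 after that of all neighbours, while the last 2 moved the median of all 795 probes to 0.15 and 0.17. With the wider pathway list in place of the text rule it was 0.19. Over the members above the threshold on both arrays, 8 higher and 9 lower became 11 and 5, with 1 at 0, after subtraction of block or neighbour medians, and 14 and 3 with all probes. How many of all 795 probes were higher or lower after these subtractions was not counted. These counts therefore have no background beside them and are no result about the members.

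Class medians moved as follows, and the cause was not tested. For alpha subunits, 0.29 became 0.58 at a mean signal of at least 2 times the threshold (Gna11 alone). With no filter, which takes in dim members, it turned to -0.085. For beta and gamma subunits, 0.19 became 0.43 after subtraction of neighbour medians, and -0.032 with the brighter filter and with no filter. For Rab proteins, -0.11 became 0.50 after subtraction of neighbour medians (Rab11b 1.15, Rab33a -0.15). It became 0.26 and 0.34 with all probes of the block and with all neighbours. In those settings other GTP-binding proteins went from 0.22 to 0.59 and 0.57, and partners from 0.063 to 0.36 and 0.60. Exchange factors went from 0.19 to 0.43 with all probes of the block. With no filter, other GTP-binding proteins turned to -0.053 and partners to -0.16. At 2 times the signal threshold 12 members passed on at least 1 array and 10 on both.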
